A study of Homo sapiens with 3 samples.

Results

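The expression of 10 textbook target genes of the estrogen receptor was followed in T47D cells, a long-established line derived from a human breast cancer and positive for the estrogen and progesterone receptors. The genes are GREB1, SIAH2, PDZK1, RET, CA12, IL17RB, TPD52L1, MYBL1, RERG and ELOVL2. All probe sets annotated to just one of these symbols were taken, which gave 27 of the 41097 probe sets with 1 gene symbol and 10 of 19775 genes. All cells were first held for 4 h in medium with 10% serum from which charcoal had removed the steroids. They then received 0.1% ethanol (the vehicle), 1 uM estradiol or 1 uM tamoxifen for 3 h, and 1 Affymetrix array was run per treatment. Without replicates no test between treatments was possible, and the precision of a difference between treatments could not be estimated. The available error is the disagreement between probe sets of the same gene, which share the RNA and the array.

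Estradiol is the natural ligand of the estrogen receptor, a transcription factor that on binding hormone recruits coactivators to response elements, many of them far from the genes they serve. Tamoxifen occupies the same pocket and in breast cells mostly favours corepressor binding, although it acts as a partial agonist at some genes and in some tissues. The 10 genes are often found to be induced by estrogen in luminal breast cancer cells, where several are used as markers of an active receptor.

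The deposited values were on a log2 scale and appeared to be centred per probe set, so they hold no signal levels, and only differences between arrays are interpreted. For the same reason the levels of luminal markers could not be used to check the identity of the cells. Differences are given in log2 units relative to the median over all genes, which was -0.0057 between estradiol and vehicle, 0.10 between tamoxifen and vehicle and 0.11 between tamoxifen and estradiol. The value of a gene is the median of its probe sets, and a difference of 1 (2-fold) was the cutoff. The vehicle array stood apart from both treated arrays in control probe sets. For 18S ribosomal RNA (3 probe sets) the median difference from vehicle was 1.86 with estradiol and 1.96 with tamoxifen, and the difference between the 3' and 5' signals of ACTB (beta actin) was -0.78 and -0.77. Between tamoxifen and estradiol these values were 0.043 and 0.0058. These control values are as deposited, without subtraction of the all-gene median. The part of these control differences in the comparisons with vehicle was not tested, and both of those comparisons share the vehicle array.

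Estradiol was the highest of the 3 arrays for most of the target genes, and tamoxifen lay between estradiol and vehicle or below both. Of the 27 probe sets, 22 were highest with estradiol relative to the all-gene median, against 29.7% of all probe sets. As deposited, 21 were highest with estradiol, against 20.4%. TPD52L1 was the 1 gene at least 2-fold higher with estradiol than with vehicle, where 1.62% of all genes were so. SIAH2 was the 1 gene at least 2-fold lower with tamoxifen than with estradiol, where 0.202% of all genes were so. All 10 genes lay below the all-gene median for tamoxifen minus estradiol, a side that holds 50.0% of all genes. In the values as deposited all 10 were below 0 as well, against 27.5% of all genes. For tamoxifen minus vehicle, 0 of 10 genes passed 2-fold, where 1.65% of all genes were higher and 1.79% lower by that much.

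**Figure D1:**
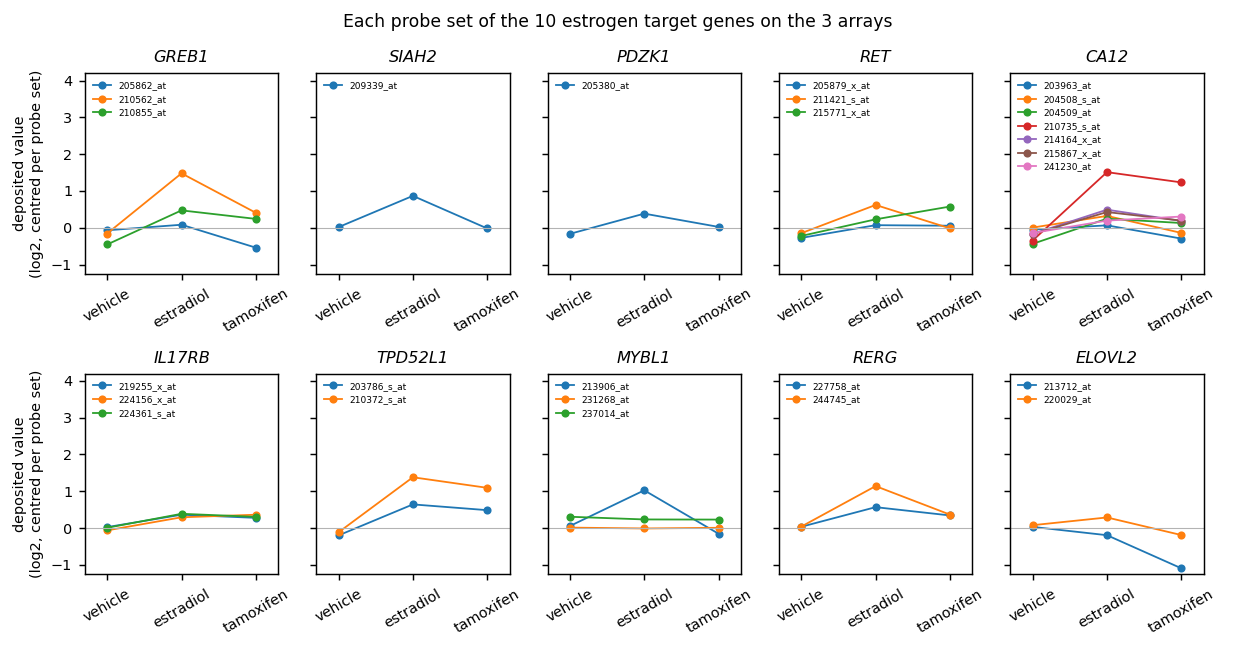
Deposited log2 values, centred per probe set, on the vehicle, estradiol and tamoxifen arrays, with 1 panel per gene and 1 line per probe set (1 array per treatment, so there are no error bars). Estradiol is the peak in most panels, whereas MYBL1 shows it in 1 of 3 probe sets and ELOVL2 is lowest with tamoxifen.

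GREB1, a chromatin-bound cofactor of the estrogen receptor, was measured by 3 probe sets, and each was highest with estradiol. Probe set 210562_at read -0.16 with vehicle, 1.480 with estradiol and 0.41 with tamoxifen. Probe set 210855_at read -0.45, 0.47 and 0.24 in the same order. The remaining probe set, 205862_at, read -0.068, 0.083 and -0.54. The first and second of these thus placed tamoxifen between vehicle and estradiol, while the last placed it below vehicle. As a gene, GREB1 was 0.93 higher with estradiol than with vehicle, a 1.91-fold difference that 2.01% of all genes exceeded, with probe sets from 0.16 to 1.64. A spread between probe sets as wide as this was seen in 6.73% of the 2778 genes with 3 probe sets. Tamoxifen minus vehicle was 0.46, with probe sets of both signs from -0.58 to 0.59, and 0.15 as their mean. Tamoxifen minus estradiol was -0.74 (1.67-fold lower with tamoxifen), all 3 probe sets lay below 0, from -1.19 to -0.35, and 100 of the 19775 genes had a lower value. These medians of 0.93, 0.46 and -0.74 come from different probe sets (210855_at, 210562_at and 205862_at), so they do not add up. In 205862_at, estradiol minus vehicle was 0.16.

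SIAH2, a RING ubiquitin ligase that marks proteins for degradation, had 1 probe set and therefore no check by another. It read 0.018 with vehicle, 0.87 with estradiol and -0.018 with tamoxifen. Estradiol alone stood out, and the tamoxifen array lay next to the vehicle array. The gene was 0.86 higher with estradiol than with vehicle (1.81-fold) and -0.14 for tamoxifen minus vehicle. For tamoxifen minus estradiol the value was -1.0008, just past the cutoff, and 38 genes had a lower one. In the values as deposited it was -0.89 and did not pass. The promoter of SIAH2 is shown because this gene had the widest gap between the ligands. It is the 250 bases before the RefSeq start site (GRCh38.p14, chr3:150763170-150763419, minus strand), printed from 5' to 3' in the direction of the gene, with 2 matches to the SP1 motif GGGCGG in capitals:
SIAH2: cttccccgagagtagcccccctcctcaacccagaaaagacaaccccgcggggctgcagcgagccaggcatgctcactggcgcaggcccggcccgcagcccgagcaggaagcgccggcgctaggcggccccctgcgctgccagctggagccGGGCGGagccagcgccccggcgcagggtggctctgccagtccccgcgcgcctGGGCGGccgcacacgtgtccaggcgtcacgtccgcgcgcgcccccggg

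The 2 receptors of the set, RET and IL17RB, differed less. RET is the receptor tyrosine kinase for ligands of the GDNF family, which it binds together with a GFRA coreceptor. Its probe set 211421_s_at read -0.15 with vehicle, 0.62 with estradiol and -0.015 with tamoxifen. Probe set 205879_x_at read -0.27, 0.071 and 0.057, and 215771_x_at read -0.22, 0.23 and 0.58. All 3 put vehicle lowest, but they disagreed on the order of the ligands. RET was 0.46 higher with estradiol than with vehicle, with probe sets from 0.35 to 0.77, and 0.23 higher with tamoxifen, from 0.028 to 0.70. For tamoxifen minus estradiol its value was -0.13, and the probe sets ran from -0.75 to 0.23. A range that wide was found in 3.96% of genes with 3 probe sets, so the direction of RET between the ligands is not settled by these values. The probe set at 0.23 was the 1 of 27 that lay above the all-gene median in this comparison.

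IL17RB, the receptor for the cytokines IL-17B and IL-25, gave 3 probe sets that agreed closely, and for estradiol minus vehicle more closely than those of any other of the 8 target genes with several. The 3 probe sets read 0.027, -0.062 and 0.0083 with vehicle (219255_x_at, 224156_x_at and 224361_s_at). With estradiol they read 0.36, 0.29 and 0.39, and with tamoxifen 0.28, 0.36 and 0.31. Every treated value was thus above every vehicle value, while the ranges of the treated arrays overlapped. Estradiol minus vehicle was 0.36 with probe sets from 0.34 to 0.39, a range at least matched by 99.2% of genes with 3 probe sets. Tamoxifen minus vehicle was 0.19. Tamoxifen minus estradiol was -0.20 relative to the all-gene median and -0.083 as deposited, where 1 probe set (224156_x_at) was higher with tamoxifen by 0.070. All 6 probe sets of RET and IL17RB carry the suffix _s_at or _x_at, which marks probes that can match more than 1 transcript.

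CA12, a membrane-bound carbonic anhydrase that hydrates carbon dioxide outside the cell, had 7 probe sets, all of them higher with estradiol than with vehicle. With vehicle they read from -0.44 to 0.0060, with estradiol from 0.067 to 1.51 and with tamoxifen from -0.29 to 1.23. Probe set 210735_s_at stood above the others, with -0.35 for vehicle, 1.51 for estradiol and 1.23 for tamoxifen. Its difference between estradiol and vehicle was 1.86, whereas the other 6 lay between 0.12 and 0.69. As a gene CA12 was 0.61 higher with estradiol (1.52-fold), or 0.34 over the 3 probe sets without the suffix _s_at or _x_at, and 0.26 higher with tamoxifen, and 2 of the 7 probe sets, 203963_at and 204508_s_at, were lower with tamoxifen than with vehicle. Between the ligands the probe sets agreed more closely. Tamoxifen minus estradiol was -0.39 (-0.23 over those 3) and the 7 values ran from -0.58 to -0.0043, a range at least matched by 71.3% of the 171 genes with 7 probe sets. The probe set nearest 0, 241230_at, was 0.11 higher with tamoxifen in the values as deposited.

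ELOVL2, an elongase of very long chain polyunsaturated fatty acids, was not highest with estradiol as a gene, which it had in common with MYBL1. Probe set 213712_at read 0.033 with vehicle, -0.19 with estradiol and -1.09 with tamoxifen. Probe set 220029_at read 0.079, 0.29 and -0.19. In both, tamoxifen was the lowest array, and they placed estradiol on opposite sides of vehicle. Estradiol minus vehicle was -0.0022, with 49.7% of all genes lower. Tamoxifen minus vehicle was -0.80, with probe sets at -1.23 and -0.37 and 3.97% of all genes lower. Tamoxifen minus estradiol was -0.80 as well (1.75-fold lower), at -1.01 and -0.59, and 75 genes were lower.

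PDZK1, a scaffold of PDZ domains that holds transporters at the membrane, had 1 probe set, which read -0.16 with vehicle, 0.39 with estradiol and 0.024 with tamoxifen. Tamoxifen lay nearer to vehicle than to estradiol. Against vehicle, PDZK1 was 0.56 higher with estradiol and 0.085 higher with tamoxifen. With tamoxifen it was -0.48 relative to estradiol, and 2.48% of all genes were lower. RERG, a small GTPase of the RAS superfamily named for its regulation by estrogen and its restraint of growth, had 2 probe sets of the same order. Probe set 244745_at read 0.040, 1.14 and 0.37 with vehicle, estradiol and tamoxifen. Probe set 227758_at read 0.036, 0.57 and 0.34. Both RERG probe sets therefore rank estradiol first and vehicle last. RERG was 0.82 higher with estradiol than with vehicle (1.77-fold, probe sets 0.54 and 1.11) and 0.21 higher with tamoxifen (0.20 and 0.22). From estradiol to tamoxifen the difference was -0.61 (-0.89 and -0.34), and 1.05% of all genes were lower.

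TPD52L1, a coiled-coil protein of the tumor protein D52 family, lay furthest above vehicle among the 10 genes with either ligand. Probe set 210372_s_at read -0.11 with vehicle, 1.38 with estradiol and 1.09 with tamoxifen. Probe set 203786_s_at read -0.20, 0.64 and 0.49. Both treated arrays stood clear of vehicle in both probe sets. TPD52L1 was 1.18 higher with estradiol (2.26-fold, probe sets 0.85 and 1.502, with 0.951% of all genes higher) and 0.84 higher with tamoxifen (1.80-fold, 0.58 and 1.11). Between the ligands the value was -0.34 (-0.40 and -0.27). Both probe sets have the suffix _s_at, so no value remains for this gene without such probe sets. Its 250 promoter bases (RefSeq, GRCh38.p14, chr6:125153996-125154245, plus strand) are shown because it had the highest value for estradiol minus vehicle, and none of the 6 motifs searched was found in them:
TPD52L1: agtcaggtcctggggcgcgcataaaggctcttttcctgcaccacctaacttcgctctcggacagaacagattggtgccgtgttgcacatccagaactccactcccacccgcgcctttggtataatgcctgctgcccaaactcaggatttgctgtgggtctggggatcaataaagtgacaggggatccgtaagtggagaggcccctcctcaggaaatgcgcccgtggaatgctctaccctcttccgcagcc

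For MYBL1, the transcription factor A-MYB, the 3 probe sets did not show the same pattern. Probe set 213906_at read 0.056 with vehicle, 1.03 with estradiol and -0.15 with tamoxifen, the estradiol-only shape of SIAH2. Probe set 231268_at read 0.014, -0.0097 and 0.0085, and 237014_at read 0.31, 0.24 and 0.23. These last 2 were flat across the arrays. The gene value was therefore -0.018 for estradiol minus vehicle, although 213906_at stood at 0.98. For tamoxifen minus estradiol it was -0.12, while 213906_at stood at -1.296, the lowest of the 27 probe sets, and a range as wide was seen in 1.44% of genes with 3 probe sets. Whether the flat probe sets had any signal above background cannot be read from centred values.

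**Figure D2:**
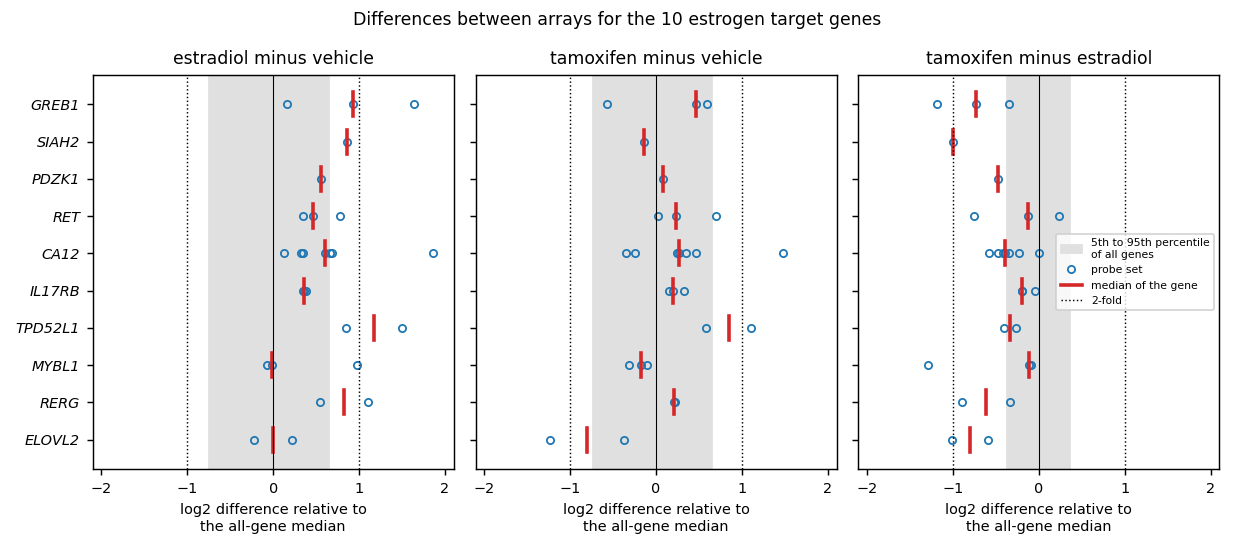
Log2 differences between arrays relative to the all-gene median for each gene, with open circles for probe sets, red bars for the median of the gene, dotted lines at 2-fold and a grey band that holds the middle of all genes, without the lowest and highest 5% (1 array per treatment). Tamoxifen minus estradiol lies at or below 0 for every gene median, and the band is narrower there (-0.37 to 0.36) than for estradiol minus vehicle (-0.75 to 0.65).

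Seen by comparison, the 10 genes had a median of 0.58 for estradiol minus vehicle, with 8 above and 2 (MYBL1 and ELOVL2) below the all-gene median. For tamoxifen minus vehicle the median was 0.20, with 7 above and 3 (SIAH2, MYBL1 and ELOVL2) below. That median was 0.31 in the values as deposited and 0.078 over the 7 genes left when _s_at and _x_at probe sets were omitted. For tamoxifen minus estradiol it was -0.43, where all genes had a scaled median absolute deviation of 0.20. The median over all genes is 0 by construction in each comparison. At a cutoff of 1.5-fold, 5 of 10 genes were higher with estradiol than with vehicle (6.42% of all genes), namely GREB1, SIAH2, CA12, TPD52L1 and RERG, of which CA12 and TPD52L1 are not counted when _s_at and _x_at probe sets are omitted. With tamoxifen against vehicle, TPD52L1 was higher and ELOVL2 lower by as much (6.35% and 8.87% of all genes). At that cutoff 4 of 10, GREB1, SIAH2, RERG and ELOVL2, were lower with tamoxifen than with estradiol (1.22% of all genes). In the values as deposited RERG was at -0.50 and did not pass. Among single probe sets, 4 of 27 were at least 2-fold higher with estradiol than with vehicle, 1 each of GREB1, CA12, TPD52L1 and RERG, against 3.90% of all probe sets. At least 2-fold lower with tamoxifen than with estradiol were 4 of 27, 1 each of GREB1, SIAH2, MYBL1 and ELOVL2, against 0.324%. In the values as deposited, those of SIAH2 and ELOVL2 read -0.89 and -0.90 and did not pass. For tamoxifen minus vehicle, the probe sets past 2-fold were 210735_s_at of CA12 (1.48), 210372_s_at of TPD52L1 (1.11) and 213712_at of ELOVL2 (-1.23). The share of all probe sets past 2-fold is not given for that comparison. Probe sets of the same gene are not independent, and the genes were chosen with earlier results of these arrays known, so these shares describe the set and do not test it.

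The promoters were searched for short motifs on both strands, in windows from 250 bases before to 50 bases after each RefSeq start site. Windows were given for 7 of the 10 genes (9 windows, with 2 each for PDZK1 and RET). GREB1, MYBL1 and RERG had none. The full palindromic estrogen response element (GGTCA and its reverse complement, 3 bases apart) was found in 0 of 9 windows and in 20 of all 35116 (0.057%). Its core repeat GGTCA, which is contained in the full element, was found in 3 of 9 windows (CA12 and PDZK1) and in 37.4% of all windows. SP1 motifs (GGGCGG) were found in 6 of 9 windows (CA12, ELOVL2, IL17RB, RET and SIAH2) and in 45.0% of all windows. The motifs of AP-1 (TGANTCA), forkhead factors (TGTTTAC) and the TATA box (TATAAA) were found in 0 of 9 windows and in 7.71%, 3.42% and 11.5% of all. A match is a run of letters and not a shown binding site, and the windows leave out the distant elements through which the receptor often acts. The pair of promoters with the core repeat are printed with that repeat in capitals, 5' to 3' in the direction of the gene. They lie on the minus strand of GRCh38.p14 at chr15:63381847-63382096 (CA12) and chr1:145707401-145707650 (PDZK1):
CA12: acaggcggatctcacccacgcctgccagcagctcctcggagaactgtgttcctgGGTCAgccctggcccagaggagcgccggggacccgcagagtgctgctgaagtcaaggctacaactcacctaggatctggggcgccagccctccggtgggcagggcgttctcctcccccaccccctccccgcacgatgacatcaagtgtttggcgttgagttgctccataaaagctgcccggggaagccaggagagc
PDZK1: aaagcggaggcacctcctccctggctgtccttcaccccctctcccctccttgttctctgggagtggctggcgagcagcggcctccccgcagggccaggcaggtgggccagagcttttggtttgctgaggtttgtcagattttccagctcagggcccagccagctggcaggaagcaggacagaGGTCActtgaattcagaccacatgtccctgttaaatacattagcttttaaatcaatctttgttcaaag

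The set was placed beside 3 context lists. Partners and paralogs of the 10 genes, 31 of 34 of them measured, showed medians near the all-gene median, at -0.046 and -0.063 for estradiol and tamoxifen against vehicle and at -0.055 between the ligands. ELOVL7, another fatty acid elongase, was the 1 of 31 past 2-fold, at 1.18 with estradiol and 1.03 with tamoxifen over vehicle by 1 probe set. Of all genes, 1.62% and 1.65% were at least 2-fold higher in those comparisons. Among partners of RET, the coreceptors GFRA1, GFRA2, GFRA3 and GFRA4 lay between -0.046 and 0.25 for estradiol minus vehicle. The relatives of MYBL1 were at 0.16 (MYB) and -0.82 (MYBL2) in that comparison, and TPD52, the namesake of the TPD52L1 family, was at 0.44 with probe sets from 0.19 to 1.72. The estrogen receptor and its cofactors, 12 of 16 measured, had 0 members past 2-fold in any comparison. ESR1, which encodes the receptor itself, was at 0.21 with estradiol and 0.074 with tamoxifen relative to vehicle. NRIP1, a corepressor that is itself a known estrogen target and stands in both this list and the next, was highest among them at 0.98 with estradiol.

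The third list held 36 other genes known to be induced by estrogen, of which 34 were measured. Its median was 0.16 for estradiol minus vehicle, below the 0.58 of the 10 genes. In that comparison 7 were at least 2-fold higher and 2 lower, against 1.62% and 1.68% of all genes. Its spread was wider, from -2.17 for TFF1, a secreted trefoil peptide, to 2.44 for KCNK5, a potassium channel. Besides these, MYC (2.18), PGR (1.476), CXCL12 (1.27) and MREG, the melanoregulin gene (1.11), differed most from vehicle with estradiol. For tamoxifen minus vehicle its median was -0.34, whereas that of the 10 genes was 0.20. There 3 were higher and 3 lower by 2-fold, against 1.65% and 1.79% of all genes. The 6 genes past 2-fold there were MYC (1.14), PGR (1.07) and CXXC5, a zinc finger protein gene (1.01), on the higher side, and TFF1 (-2.85), RAPGEFL1 (-1.38) and the lipid transporter gene ABCA3 (-1.15) on the lower side. For tamoxifen minus estradiol both lists lay low, at -0.39 with 29 of 34 below 0 and at -0.43 with 10 of 10. At least 2-fold lower with tamoxifen than with estradiol were 5 of 34 genes, against 0.202% of all genes. These were KCNK5 at -2.06, the chemokine gene CXCL12 at -1.82, RAPGEFL1, an exchange factor gene, at -1.21, MYC at -1.04 and the neuropeptide Y receptor gene NPY1R at -1.0020. Like SIAH2, MYC and NPY1R passed by a margin smaller than the subtracted median and read -0.93 and -0.89 as deposited. No difference between the lists was tested.

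**Figure D3:**
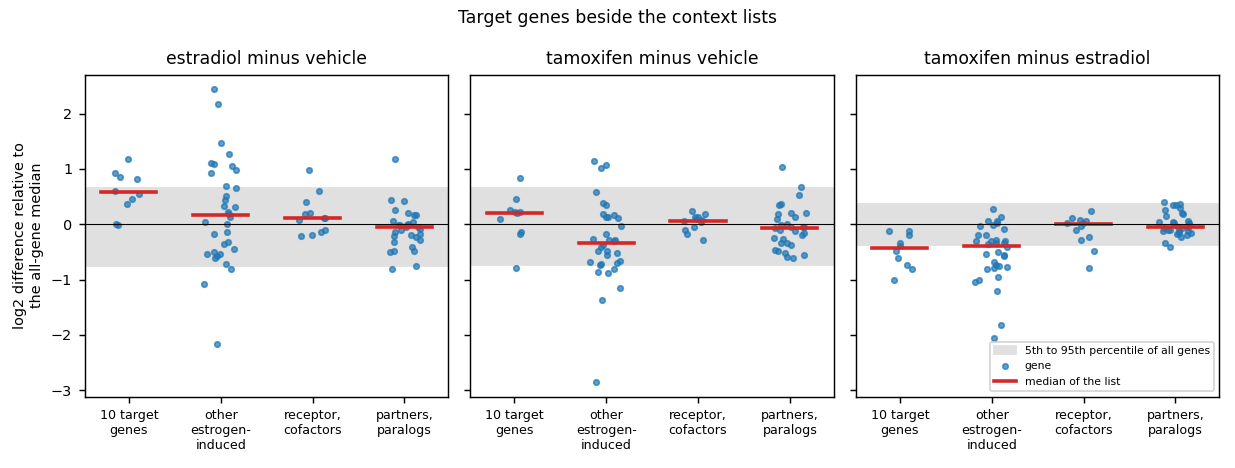
Log2 differences relative to the all-gene median for the 10 target genes and the 3 context lists in each comparison, with points for genes, red bars for list medians and a grey band that holds all genes but the lowest and highest 5% (horizontal jitter is arbitrary). The target genes and the other estrogen-induced genes have medians of -0.43 and -0.39 for tamoxifen minus estradiol, and the other lists lie near 0.

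Markers of cell types other than luminal epithelium gave no difference past 2-fold. Of 10 such markers (basal epithelium, fibroblast, leukocyte and endothelium), 9 were measured, and they ran from -0.97 to 0.30 for estradiol minus vehicle and from -0.57 to 0.41 for tamoxifen minus estradiol. For tamoxifen minus vehicle they ran from -0.88 to 0.72 with a median of 0.32, above the 0.20 of the target genes, and the part of these markers in that value was not tested. Of 9 luminal markers, PGR, the progesterone receptor gene and a known estrogen target, was the 1 past 2-fold, at 1.476 with estradiol and 1.07 with tamoxifen over vehicle. The shares of all genes at least 2-fold higher there were 1.62% and 1.65%.

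Genes of the most similar pattern were looked up by distance in the plane of estradiol minus vehicle and tamoxifen minus vehicle, over 3 arrays and the 5508 genes with at least 3 probe sets. GREB1 had few neighbours, with 6 genes within 0.1, the nearest being STK17B, PPP4R4 and TMEM64 at distances of 0.037, 0.040 and 0.070. The nearest to CA12 were SH3GL1P2, CEBPZOS and ATR, with 40 genes within 0.1. RET (nearest TMEM33, SOCS5 and MAPK9), IL17RB (AKAP12, TAX1BP1 and SLC30A1) and MYBL1 (MARVELD3, MMP11 and KHDRBS1) had 110, 191 and 325 genes that close. The distance uses 2 values, so such neighbours are common where a gene lies near 0. It leaves out tamoxifen minus estradiol, which is a separate median over probe sets. There the nearest genes were at -0.29 (STK17B, GREB1 at -0.74), -0.36 (SH3GL1P2, CA12 at -0.39) and -0.33 (TMEM33, RET at -0.13). AKAP12 at 0.12 (IL17RB at -0.20) and MARVELD3 at 0.086 (MYBL1 at -0.12) lay on the other side of 0 from their target genes.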

How the data were processed

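RNA of T47D cells was measured on 3 arrays of 54675 probe sets, 1 for each treatment given in the labels. The authors' deposited values are log2 expression values made with RMA (background correction, quantile normalization and probe summary), per the submitters' processing notes, with no version. RMA values are normally positive, whereas these carry both signs around array medians near 0, so a centre per probe set appears to have been subtracted before deposit. No label records this step, and what was subtracted is unknown here. The log base follows from RMA and has no check in centred values, and RMA shrinks differences of dim probe sets. Gene symbols came from the platform annotation (41097 probe sets with 1 symbol, 1801 with several, 11777 unnamed here), and probe sets with several were left out. By Entrez identifier 41043 matched the RefSeq gene table of GRCh38.p14, with 0 changed symbols. Differences between arrays were taken per probe set, the median over probe sets gave 19775 gene values, and the all-gene median was subtracted. Named genes are the 10 target genes and list members past 2-fold, at most 6 per list and comparison by size. The 3 nearest genes to each target gene with at least 3 probe sets are also named. Other list members named were chosen after their values were seen. The target genes and lists were chosen with earlier results of these data known. The gene summary was checked on the differences of these arrays, shuffled over probe sets, with a constant added to a subset of genes. That check covers the code and not the error of the values. Calculations used Python 3.11.15, numpy 2.4.6, pandas 2.3.3 and matplotlib 3.10.9. With 1 array per group, no test was made. Alternatives were no subtraction, the mean over probe sets, leaving out suffixes _s_at and _x_at, a cutoff of 1.5-fold, and every probe set past the cutoff.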

Additional observations from a re-analysis of the deposited data

How the results depend on the processing

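No replicate could be left out, and no paired analysis was possible because each group had 1 array. The medians over the 10 genes kept their sign under no subtraction, the mean over probe sets and the omission of _s_at and _x_at probe sets. The median for tamoxifen minus vehicle, 0.20, became 0.31 with no subtraction and 0.078 with those probe sets omitted, while the others stayed within 1.5 times. Counts of genes past the cutoff were small and moved easily. For estradiol minus vehicle the count of 1 became 5 at 1.5-fold, 0 without the _s_at and _x_at probe sets (which leaves 7 of the 10 genes, without TPD52L1) and 0 when every probe set had to pass. For tamoxifen minus vehicle the count of 0 became 2 at 1.5-fold (TPD52L1 higher and ELOVL2 lower). For tamoxifen minus estradiol the count of 1 became 4 at 1.5-fold, 0 with no subtraction and 0 when _s_at and _x_at probe sets were omitted, where the all-gene median of the rest left SIAH2 just short of the cutoff. Among single genes, CA12 went from 0.61 to 0.34 for estradiol minus vehicle when those probe sets were omitted and GREB1 from 0.46 to 0.15 for tamoxifen minus vehicle with the mean over probe sets. MYBL1 changed sign for estradiol minus vehicle with the mean over probe sets, to 0.30, and moved to -0.50 for tamoxifen minus estradiol. Signal over background could not be used to set aside dim probe sets, since levels were not kept.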
